A study of Mus musculus with 41 samples.

Results

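The piRNA pathway genes are 32 genes that encode the PIWI proteins, their Tudor domain partners, the helicases and nucleases that make piRNAs, and factors that act with them. They were taken by symbol from the rows of 2 gene tables with 55536 rows each, after the gene identifiers had been matched to GENCODE M21 names on the GRCm38 build, and all 32 had a row in both. Of these, 30 had enough counts to be tested in the RNA-seq table and 31 in the iSLAM-seq table. Gtsf2 was at 0 counts in all 8 RNA-seq libraries, and Tdrd6 had 4 to 13 counts, so neither was tested there.

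piRNAs are small germline RNAs that guide PIWI proteins to transposon transcripts, which are cut or silenced. In male mice PIWIL2 (MILI) is made from fetal germ cells onward, PIWIL4 (MIWI2) acts in the nucleus of fetal and newborn germ cells where transposons are methylated, and PIWIL1 (MIWI) appears in spermatocytes and spermatids. Precursor transcripts are unwound and cut at the mitochondrial surface, trimmed and methylated at their 3′ ends, and many of the proteins that do this are held together by Tudor domains that bind methylated arginines of PIWI proteins.

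The series follows RHOX10, a homeobox transcription factor of the X-linked reproductive homeobox cluster, in C57BL/6 mouse germ cells, with 41 samples over 3 assays. The RNA-seq libraries came from testis cells that were sorted as positive for an OCT4-eGFP reporter, which both genotypes carried through a cross, in 4 wild-type and 4 Rhox10-null libraries, each of which pooled the testes of 3 animals whose age the labels do not give. iSLAM-seq, a method built on metabolic labelling of new RNA after a factor is switched on, was made from cultured germline stem cells of newborn testes that all carried an shRNA against endogenous Rhox10. They also carried either a Rhox10-ERT2-mCherry fusion, which responds to 4-hydroxytamoxifen (the Rhox10 vector), or ERT2-mCherry alone (the Ctrl vector), with 2 libraries per vector at 0, 0.5, 1, 2, 4 and 8 h, and the labels do not say whether both vectors received the inducer. CUT&Tag, in which an antibody brings a transposase to the bound sites, was made from germline stem cells with the same knockdown and either an HA-tagged Rhox10 or an empty HA vector, with 3 libraries each for HA in the Rhox10 cells (RHOX10), HA in empty vector cells (Ctrl) and IgG in the Rhox10 cells. The rescue constructs are lentiviral, so the Rhox10 vector cells are cells with added factor and not cells with the endogenous gene.

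Library totals ranged from 6602089 to 8278887 counts in RNA-seq and from 9419615 to 12645845 in iSLAM-seq. A single gene, Gm42418, which overlaps ribosomal RNA sequence, took 58.0% to 59.4% of the wild-type and 51.0% to 52.7% of the null RNA-seq counts. Rhox10 itself had 3 to 10 counts in wild-type and 4 to 11 in null libraries, so it could not check the genotype labels. In iSLAM-seq Rhox10 stood at 34.0 to 46.7 CPM (counts scaled to a common library size, here with TMM) with the Rhox10 vector, 0 h included, and at 0.202 to 2.42 with the Ctrl vector. The 2 Ctrl libraries at 0.5 h differed from each other with a chi-square of 30.02 per degree of freedom over genes, where counting noise alone gives about 1, against 5.13 or less in every other replicate pair. Among other members, library 2 held the highest Ctrl value of Tdrd1 (124 CPM) and Mov10l1 (183) and the lowest of Tdrd7 (9.63), Morc1 (7.99), Mael (141) and Wdr77 (106). Library 1 held the highest of Ddx4 (141) and Tdrd5 (76.7) and the lowest of Piwil4 (19.0), Pnldc1 (24.2) and Tdrd9 (0.505). Fits without library 1 keep library 2 as the 1 Ctrl library of 0.5 h. The counts of members are therefore also given without the 0.5 h libraries, and members whose averaged call then changed are named. In RNA-seq the same chi-square was 4.59 to 5.13 between null library 4 and the other null libraries. Between those others it was 1.42 to 1.62. For wild-type library 4 it was 1.84 to 3.03, against 1.25 to 1.72 between the other wild-type libraries.

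The sequences below show the promoters that carry both a RHOX10 peak and an E-box, CACGTG, in the stretch free of annotated exons, and the promoter under the member peak of highest score. They are from RefSeq on GRCm38.p6, read 5′ to 3′ on the strand of the gene, with the E-box in capitals, and for Mov10l1 also a MYB motif of the form AACNGT. Mael is at chr1:166238748-166238994 on the minus strand, ending 4 bases before the start site. Mov10l1 is at chr15:88982744-88982908 on the plus strand, and Snd1, which has none of the motifs searched, at chr6:28480098-28480347 on the plus strand.
Mael: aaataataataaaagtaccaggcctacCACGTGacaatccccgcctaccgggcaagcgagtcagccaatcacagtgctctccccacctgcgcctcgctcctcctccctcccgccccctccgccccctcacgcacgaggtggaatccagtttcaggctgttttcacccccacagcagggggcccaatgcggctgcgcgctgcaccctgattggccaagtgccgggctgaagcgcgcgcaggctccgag
Mov10l1: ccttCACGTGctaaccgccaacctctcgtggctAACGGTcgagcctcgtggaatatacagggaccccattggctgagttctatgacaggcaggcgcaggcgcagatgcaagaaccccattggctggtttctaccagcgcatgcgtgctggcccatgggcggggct
Snd1: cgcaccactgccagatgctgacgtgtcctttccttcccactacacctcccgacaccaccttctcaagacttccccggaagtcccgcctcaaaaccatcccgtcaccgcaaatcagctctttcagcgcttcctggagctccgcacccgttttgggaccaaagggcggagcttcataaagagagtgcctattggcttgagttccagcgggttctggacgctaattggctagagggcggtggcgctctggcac

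E-boxes were also found in the promoters of members without a peak, and the windows below give up to 12 bases on each side of one for each gene, with the E-box in capitals. Wdr77, whose E-box lies after its start site, is not shown. The windows of Piwil1 at chr5:128736055-128736084 and Stk31 at chr6:49395472-49395501 are on the plus strand, as are Tdrd9 at chr12:111971382-111971411 and Tdrd1 at chr19:56826186-56826208. Those of Fkbp6 at chr5:135350128-135350157 and Pld6 at chr11:59787673-59787702 are on the minus strand.
Piwil1: aaaaccgccaccCACGTGgcagccaatcag
Stk31: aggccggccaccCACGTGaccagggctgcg
Tdrd9: ggtctccataaaCACGTGcctgtccaggtc
Tdrd1: tggggctgcgcgCACGTGggagt
Fkbp6: tgcgcctgccatCACGTGtgcagcgcgtgc
Pld6: ggggcgggctggCACGTGttgggcgcgcaa

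The promoter table held windows of 250 bases before to 50 bases after the start site for 26 of the 32 members. An E-box was present in 10 of these 26 genes (38.5%), against 8.09% of 27025 genes in the table. The 10 genes were Ddx4, Fkbp6, Mael, Mov10l1, Piwil1, Pld6, Stk31, Tdrd1, Tdrd9 and Wdr77. Member promoters are rich in G and C, with a median of 62.3% against 52.7% for all windows. Among windows of at least 62.3% G and C, 9 of 18 member windows and 11% of 7822 windows held an E-box. Windows are counted by start site, so a gene and a motif match can count more than once. Overlapping windows of Fkbp6, Stk31 and Tdrd1 hold the same E-boxes, and those of Fkbp6 also the same MYB motif. The MYB motif AACNGT was in 8 of 26 member genes (30.8%) and 28.9% of all genes. Among the windows of at least 62.3% G and C it was in 6 of 18 member windows and 12.1% of 7822. The E2F motif GGCGGGAA was in 1 member gene, Ddx4, (3.85%) and 2.52% of all genes. Among those windows it was in 1 of 18 member windows and 4.96% of 7822. The homeobox motif TAATTA was in 0 of 26 member genes and 6.12% of all genes. It is rare in the windows of at least 62.3% G and C, with 0 of 18 member windows and 0.435% of 7822. Both strands were searched, the motifs do not contain each other, and a match describes letters in a window only.

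In the OCT4-eGFP sorted testis cells most of the pathway was lower in the null libraries. Of 30 tested members, 22 were lower (edgeR quasi-likelihood test, Benjamini-Hochberg adjusted p under 0.05), against 18.9% of 13538 genes called lower. Only Tdrd3 was higher, 1 member against 18.6% of all genes, and 7 members did not pass. The median log2 fold change of the members was -0.63 and that of all tested genes 0.00. In 21 members every null library lay below every wild-type library, which held for 16.4% of all tested genes. These directions hold for TMM scaling, and scaling to 17 pan germ cell genes turned 21 members from below 0 to above it (values in a later paragraph). With scaling to library totals, which moved the median of all genes up by 0.35, 15 members were lower (4.65% of all genes) and 3 were higher (53.4%), and the calls of Piwil4, Tdrd7, Tdrd9, Tdrd12, Tdrkh, Gtsf1 and Wdr77 ended. The labels do not say that the pools are separate litters or cages, so the p-values measure the spread between these libraries.

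**Figure D1:**
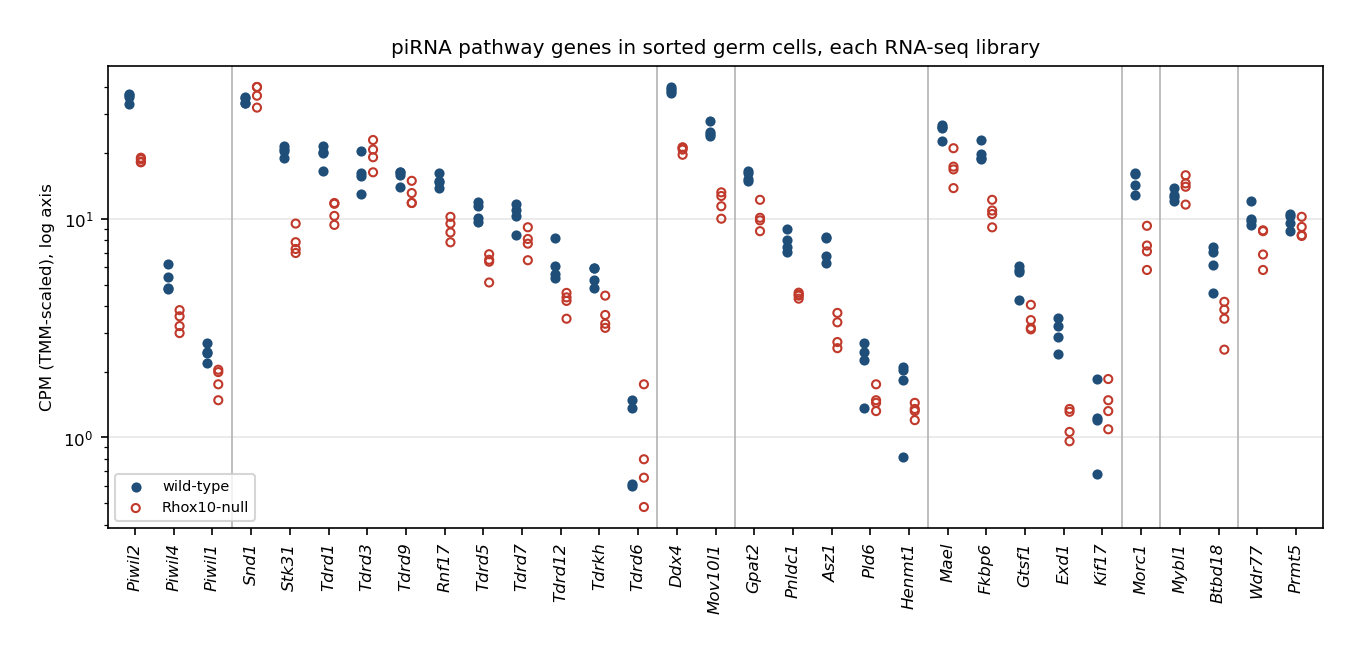
Levels of 31 piRNA pathway genes (Gtsf2, at 0 counts, is left out) in each RNA-seq library, as CPM on a log axis, with filled points for the 4 wild-type and open points for the 4 null libraries. Vertical lines part the roles; Stk31 fell from 18.9 to 21.5 CPM in wild-type to 6.97 to 9.50 in null libraries, and Snd1 overlapped between genotypes.

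Per kb of exon, Mael had the highest wild-type mean of the members at 14.7 CPM per kb, followed by Ddx4 at 12.9 and Fkbp6 at 11.5. Piwil2 (6.77), Stk31 (6.31), Mov10l1 (6.05) and Gpat2 (5.98) came next. Below 1 CPM per kb were Piwil4 (0.986), Tdrkh (0.896), Henmt1 (0.635), Piwil1 (0.563), Exd1 (0.498), Kif17 (0.271) and Tdrd6 (0.144).

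Among the PIWI genes, Piwil2 (chr14:70372477-70429383, minus strand) was at 36.7, 36.0, 37.0 and 33.4 CPM in the wild-type libraries and 18.2, 18.1, 19.0 and 18.7 in the null libraries. The groups were far apart, and the null mean was 51.9% of the wild-type mean, a log2 fold change of -0.95 ± 0.0699 (SE, 4 libraries each; edgeR adjusted p = 1.02e-14). Piwil4 (chr9:14696230-14740733, minus strand) was at 4.81, 4.76, 5.42 and 6.24 CPM in wild-type and 3.82, 3.58, 3.00 and 3.23 in null libraries. It fell by 0.64 on the log2 scale without overlap (SE 0.177, edgeR adjusted p = 0.00387), and with library totals it was at -0.29 with no call (adjusted p = 0.159). Piwil1 (chr5:128702524-128755474, plus strand), the PIWI gene of later germ cells, was the lowest of the PIWI genes per length, at 0.563 CPM per kb of exon in wild-type against 6.77 for Piwil2 and 0.986 for Piwil4. Its libraries read 2.71, 2.45, 2.2 and 2.44 CPM in wild-type and 1.75, 1.99, 2.04 and 1.48 in null libraries. These did not overlap, but the log2 difference of -0.43 ± 0.25 (SE) did not pass (edgeR adjusted p = 0.175).

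Among the 10 tested Tudor domain genes, 8 were lower and Tdrd3 was higher. Stk31, a Tudor and kinase domain protein of germ cells, had the largest fall of all members, with 20.5, 18.9, 21.5 and 20.9 CPM in wild-type and 9.50, 7.81, 6.97 and 7.27 in null libraries. The null mean was 38.9% of wild-type, a log2 fold change of -1.36 ± 0.104 (SE; edgeR adjusted p = 2.60e-14). Tdrd1, a partner of PIWIL2 in the granules between mitochondria, ranged from 16.6 to 21.5 CPM in wild-type and from 9.37 to 11.8 in null libraries, and it fell by 0.87 on the log2 scale. Rnf17, a Tudor protein that restrains the piRNA amplification loop, ranged from 13.8 to 16.2 CPM against 7.80 to 10.2 and fell by 0.72. Both were apart between genotypes. Tdrd5, needed for processing of pachytene precursors, was at 11.4, 10.1, 9.66 and 11.9 CPM in wild-type and 6.88, 6.36, 6.49 and 5.11 in null libraries, and it fell by 0.79 without overlap. Tdrd12, which works with PIWIL2 in secondary piRNA production, was at 5.57, 5.37, 6.10 and 8.14 CPM against 3.49, 4.37, 4.21 and 4.58, a fall of 0.62 (with library totals -0.27 and no call, adjusted p = 0.164). Tdrkh, which tethers PIWI proteins at mitochondria for trimming, was at 4.81, 5.98, 5.26 and 5.97 CPM against 3.17, 3.31, 4.45 and 3.63, a fall of 0.60 (with library totals -0.25 and no call, adjusted p = 0.214). Of the exonic bases of Tdrkh, 36.71% also lie in exons of Oaz3 on the opposite strand, and the strand setting of the counting is not given, so its value is uncertain.

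The falls of Tdrd7 and Tdrd9 were smaller, at -0.40 and -0.28, and their libraries overlapped between genotypes. The call of Tdrd7 was lost with library totals (-0.05, edgeR adjusted p = 0.753), with DESeq2 (0.0707) and without null library 4 (0.0514) or wild-type library 2 (0.0511). Tdrd9 turned to 0.06 with library totals (edgeR adjusted p = 0.613), and its call was lost with DESeq2 (0.121) and without null library 1 (0.0767) or 3 (0.0701) or wild-type library 4 (0.0562). Snd1, a Tudor and nuclease domain protein found in most cells, was at 35.8, 35.9, 33.7 and 33.9 CPM in wild-type and 36.5, 32.2, 40.0 and 40.0 in null libraries, with no call (log2 0.09, edgeR adjusted p = 0.275), and with library totals it was called higher at 0.44. Tdrd3, a Tudor protein that is also not specific to germ cells, was at 16.2, 13.0, 20.5 and 15.6 CPM in wild-type and 22.9, 20.7, 16.3 and 19 in null libraries. These overlapped, and its rise of 0.29 (SE 0.103, edgeR adjusted p = 0.0244) was lost with DESeq2 and without null library 1 or 2 or wild-type library 2 or 4 (adjusted p of 0.0582 to 0.171 over these 5 settings). Tdrd6, which builds the chromatoid body of spermatids, was at 0.602, 0.614, 1.36 and 1.49 CPM in wild-type and 0.655, 0.795, 0.481 and 1.75 in null libraries.

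Both helicases fell. Ddx4 (the vasa homologue, a general germ cell marker) was at 39.9, 37.7, 39.2 and 38.3 CPM in wild-type and 21.2, 20.7, 19.6 and 21.1 in null libraries, a log2 fold change of -0.91 ± 0.0662 (SE; edgeR adjusted p = 6.77e-15). Mov10l1, which starts primary piRNA processing, was at 28.1, 23.8, 24.9 and 24.4 CPM against 10, 13.2, 12.7 and 11.4. Its null mean was 46.7% of wild-type, a log2 fold change of -1.10 ± 0.0913 (SE; edgeR adjusted p = 3.52e-13).

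Of the 5 genes of the mitochondrial surface and of end processing, Asz1, Gpat2 and Pnldc1 fell. Asz1, a mitochondrial scaffold of primary processing, was at 8.27, 6.29, 6.78 and 8.14 CPM in wild-type and 2.73, 3.71, 3.36 and 2.56 in null libraries, a log2 fold change of -1.26 ± 0.169 (SE; edgeR adjusted p = 8.30e-08). Pnldc1, the trimmer of piRNA 3′ ends, was at 7.07, 7.98, 8.98 and 7.46 CPM against 4.59, 4.50, 4.45 and 4.31, a fall of 0.81 without overlap. Gpat2, a mitochondrial acyltransferase needed for primary piRNAs, ranged from 14.9 to 16.6 CPM in wild-type and from 8.77 to 12.2 in null libraries and fell by 0.63. Pld6, the nuclease that cuts precursors, ranged from 1.36 to 2.71 CPM against 1.32 to 1.75 and had a log2 difference of -0.56 ± 0.275 (SE) and no call (edgeR adjusted p = 0.105), with the call gained without wild-type library 3 (adjusted p = 0.0447). Henmt1, which methylates piRNA 3′ ends, had -0.33 ± 0.309 and no call.

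Among the other cofactors, Exd1, a partner of TDRD12 in piRNA production, was at 2.41, 3.22, 2.88 and 3.53 CPM in wild-type and 1.31, 1.06, 0.961 and 1.35 in null libraries. It fell by 1.36 on the log2 scale (SE 0.266, edgeR adjusted p = 7.44e-05), as far as Stk31 but from a lower level and with a larger error. Mael, which acts in transposon silencing and piRNA granules, was at 26.9, 26.2, 22.7 and 26.0 CPM against 21, 17.3, 13.8 and 16.8, a log2 fold change of -0.56 ± 0.0902 (SE). Fkbp6, a co-chaperone of PIWI loading, ranged from 18.7 to 22.9 CPM in wild-type and from 9.13 to 12.2 in null libraries, a fall of 0.91. Gtsf1, a partner of PIWI slicing, was at 5.72, 5.83, 4.24 and 6.11 CPM against 3.17, 3.44, 3.12 and 4.04, a fall of 0.69, with the highest null library just under the lowest wild-type library. With library totals Gtsf1 was at -0.34 with no call (edgeR adjusted p = 0.0951). Kif17, a motor protein, had 0.22 ± 0.33 and no call.

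Morc1, a nuclear factor that silences transposons in germ cells, was at 16.1, 16.0, 14.2 and 12.8 CPM in wild-type and 7.54, 5.83, 7.09 and 9.28 in null libraries, a fall of 0.99. The 2 genes that act on transcription of piRNA loci parted. Btbd18, which promotes elongation at pachytene piRNA loci, was at 6.17, 7.06, 4.58 and 7.46 CPM against 3.49, 2.52, 3.84 and 4.17, a log2 fold change of -0.86 ± 0.178 (SE; edgeR adjusted p = 1.59e-04). Mybl1 (A-MYB, the activator of pachytene piRNA loci and of piRNA pathway genes) was at 12.9, 12.6, 12 and 13.8 CPM in wild-type and 15.8, 14.0, 14.5 and 11.6 in null libraries. Its groups overlapped and it had no call (log2 0.13 ± 0.103 SE, edgeR adjusted p = 0.34), and with library totals it was called higher at 0.48. Of the arginine methylation pair, Wdr77, the cofactor, ranged from 9.36 to 12 CPM in wild-type and from 5.83 to 8.85 in null libraries and fell by 0.41. Prmt5, the enzyme itself, ranged from 8.82 to 10.5 CPM against 8.34 to 10.2 and did not pass (log2 -0.11). Of the exonic bases of Wdr77, 31.46% are shared with Gm42890 and Atp5f1, and its call was lost with library totals (-0.07, edgeR adjusted p = 0.688), with DESeq2 (0.0587) and without null library 2 (0.0656) or wild-type library 3 (0.0542).

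Germ cell genes as a group were also lower in the null libraries, and genes of other testis cells were higher. In the pan germ cell list 11 of 14 tested genes were lower and 0 higher, with a median log2 fold change of -0.87. In the list of undifferentiated spermatogonia it was 12 of 13 and 0, with a median of -0.97, and in the list of differentiating spermatogonia and meiosis 8 of 13 and 2, with a median of -0.84. The summed level of the 32 members was 402 to 411 CPM in wild-type and 263 to 280 in null libraries, and that of the pan germ cell list 196 to 214 and 102 to 112. Of stromal and peritubular genes 7 of 8 were higher, with sums of 446 to 471 CPM against 707 to 747. Of Leydig genes 4 of 5 were higher (34.6 to 36.0 against 46.7 to 56.4), and of endothelial and macrophage genes 6 of 10 (45.9 to 50.1 against 63.4 to 71.6). Of erythroid genes 6 of 6 were higher (1.36 to 4.07 against 78.9 to 88.1), with 0 of these lists' genes lower. Sertoli genes had 3 of 11 lower and 2 higher (663 to 711 against 688 to 713). In both genotypes the Sertoli and stromal sums lay above that of the pan germ cell list, so the sorted libraries also hold RNA of other testis cells. The sums depend on the genes listed and are not shares of cells. No list had its defining genes at 0 in all RNA-seq libraries. The part of other cell types in the members' differences was not tested, and fewer germ cells and less RNA per germ cell cannot be told apart in bulk libraries.

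With libraries scaled to the 17 pan germ cell genes found in the table, the median of all genes moved up by 0.96 on the log2 scale. The scaling used the summed counts of these genes, so the more abundant ones weigh most. Dazl (log2 -1.08 under TMM) had a mean of 77.7 CPM in wild-type libraries, where the list summed to 196 to 214 CPM. On that scale 92.5% of all genes were called higher and 0.414% lower (edgeR quasi-likelihood test, adjusted over all genes). Of the 30 tested members 12 were higher, 17 did not pass and 1 was lower. The member still lower was Stk31, at -0.40 (adjusted p = 0.00112). Exd1 was also at -0.40 (adjusted p = 0.166), Asz1 at -0.30 and Mov10l1 at -0.13, none of them called. Piwil2 was at 0.02, Ddx4 at 0.06 and Fkbp6 at 0.05. The median of the members was 0.33, against 0.97 for all genes. The gap between these medians is near that under TMM by construction, since the scaling moves all genes by about the same amount.

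**Figure D2:**
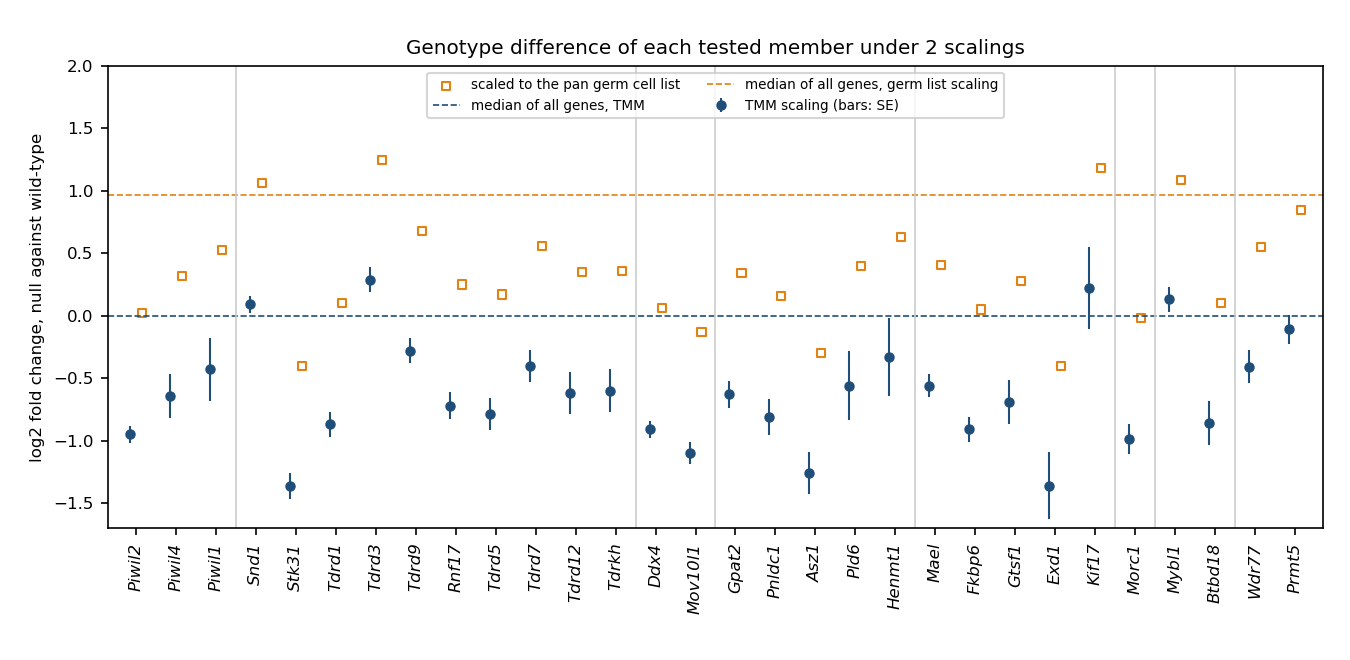
Log2 fold change of null against wild-type for the 30 tested members, with TMM scaling (filled points, bars are SE) and with scaling to the pan germ cell list (open squares); dashed lines are the medians of all genes, 0.00 and 0.97. Stk31, at -1.36 and -0.40, is the member called lower on both scales.

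Of 11 tested genes in a list of other piRNA and transposon silencing genes, 5 were lower, against 18.9% of all genes, and 1 was higher, with a median of -0.20. Tex15, an executor of piRNA-directed methylation, had a log2 fold change of -0.86 and Tex19.1, which protects germ cells from transposons, -0.73. Trim28 (-0.07) and Mov10 (-0.02), which act in many cell types, did not pass, and Ehmt2, a histone methyltransferase, was higher at 0.36.

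In the cultured germline stem cells the members were also lower with the Rhox10 vector than with the Ctrl vector. Over the mean of 0.5 to 8 h, 22 of 31 tested members were lower, against 18.4% of 20642 genes, 1 was higher, against 18.7%, and 8 did not pass (edgeR quasi-likelihood test over 24 libraries). The median difference was -0.30 for members and 0.00 for all genes. Without the 0.5 h libraries 21 were lower and 2 higher (Mybl1 at 0.51 and Tdrd7 at 0.21), against 39.3% of genes called in either direction. Tdrd3 was then lower, and the calls of Exd1 and Tdrd12 ended. In 11 members all 10 Rhox10 libraries from 0.5 h on lay below all 10 Ctrl libraries, against 3.17% of all genes. In 19 members the Rhox10 vector was lower at all 6 times, 0 h included, against 15.4% of all genes. The labels do not say that the libraries of a vector are separate transductions or cultures, so the p-values measure the spread between these libraries. A difference due to the vector cannot be told apart from one between the cultures that carry each vector.

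The PIWI genes all fell in this contrast, where a fall means lower with the Rhox10 vector and not a change over time. Piwil1 read 7.12, 8.61 and 12.1 CPM (lowest, median and highest of 10 Ctrl libraries from 0.5 h on) and 1.56, 3.09 and 3.63 in the 10 Rhox10 libraries. Its groups were widely parted, with a log2 difference of -1.63 ± 0.131 (SE; edgeR adjusted p = 8.01e-10), the largest of all members. Piwil2 read 193, 202 and 222 CPM against 156, 168 and 191, a smaller difference of -0.28 ± 0.0378 (SE; edgeR adjusted p = 2.91e-06). For Piwil2 the vector difference was largest at 0 h, at -0.44, and smallest at 8 h, at -0.17. It was called at 0, 0.5 and 1 h only. Piwil4 read 19.0, 25.6 and 35.3 CPM against 15.4, 20.9 and 26.2, with overlap, and it fell by 0.36 (SE 0.0767, edgeR adjusted p = 5.98e-04).

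Of the genes that act on transcription of piRNA loci, Btbd18 fell and Mybl1 rose. Btbd18 read 2.93, 4.22 and 5.09 CPM with Ctrl and 0.492, 1.44 and 2.80 with Rhox10, without overlap, from 6 to 63 counts per library. Its difference of -1.43 ± 0.23 (SE; edgeR adjusted p = 2.54e-05) was next in size to that of Piwil1. Mybl1 read 6.19, 7.63 and 10.4 CPM with Ctrl and 9.56, 11.5 and 14.6 with Rhox10. Some libraries overlapped, and its rise was 0.54 ± 0.102 (SE; edgeR adjusted p = 1.61e-04).

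Among the helicases, Ddx4 read 113, 128 and 141 CPM with Ctrl and 85.9, 90 and 103 with Rhox10, without overlap, and fell by 0.49 (SE 0.0406, edgeR adjusted p = 1.32e-09). Mov10l1 read 133, 142 and 183 CPM against 89.9, 107 and 114, also apart, and fell by 0.47 (SE 0.0423). At the mitochondrial surface, Gpat2 read 54.4, 58.9 and 64.2 CPM against 35.6, 39.8 and 43.0, without overlap, and fell by 0.57. The trimmer gene Pnldc1 read 24.2, 33.7 and 40.6 CPM against 16.2, 23.2 and 28.9, with overlap, and fell by 0.50. Asz1 read 48.1, 52.5 and 58.5 CPM against 39.0, 44.0 and 51.0 and fell by 0.25, although at 0 h its vector difference was 0.01.

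Of the 11 Tudor domain genes 6 fell in culture, none by more than 0.39. Tdrd5 read 63.2, 75.0 and 76.7 CPM with Ctrl and 51.4, 54.0 and 62.2 with Rhox10, and Tdrd1 86.2, 91.5 and 124 against 65.4, 69.4 and 80.8. Both were without overlap, and both fell by 0.39. Stk31 read 111, 122 and 129 CPM against 94.6, 97.7 and 102 and fell by 0.30, also without overlap. Tdrd12 read 35.4, 40.1 and 54.9 CPM against 34.0, 36.4 and 40.7, and Tdrkh 32.2, 36.8 and 40.9 against 29.3, 37.7 and 40.7, so both overlapped widely. Tdrd3, higher in the null sorted cells, read 19, 22.9 and 26.1 CPM against 15.5, 20.7 and 24.3 and had no call (-0.16, edgeR adjusted p = 0.053). It was called lower in 4 other settings, among them the fit without the 0.5 h libraries (-0.22, adjusted p = 0.027). Tdrd7 read 9.63, 35.0 and 42.2 CPM against 30.1, 36.4 and 59.9, where the lowest Ctrl value is a 0.5 h library, and had no call (0.22). It was called higher without all 0.5 h libraries (0.21, edgeR adjusted p = 0.048) and with no filter on low counts (0.23, 0.00905). Without Ctrl library 1 of 0.5 h (40.8 CPM) Tdrd7 was at 0.51. That fit kept library 2, at 9.63 CPM, as the 1 Ctrl library of that time. Tdrd6 read 1.09, 1.56 and 3.15 CPM against 1.31, 1.57 and 2.41, with no call at this depth.

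Both arginine methylation genes fell. Prmt5 read 204, 224 and 267 CPM with Ctrl and 179, 182 and 193 with Rhox10, without overlap, and fell by 0.30 (SE 0.0381, edgeR adjusted p = 1.07e-06). Wdr77 read 106, 154 and 170 CPM against 116, 134 and 142, where the lowest Ctrl value is a 0.5 h library, and fell by 0.20. Prmt5 had no call in the sorted cells.

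Other large falls were those of Morc1 and Gtsf1. Morc1 read 7.99, 16.0 and 18.1 CPM against 6.87, 9.63 and 12.5, where the low Ctrl value is a 0.5 h library, and fell by 0.70 (SE 0.107). Gtsf1 read 8.64, 12.6 and 13.6 CPM against 6.12, 8.55 and 10 and fell by 0.58 (SE 0.0962). Fkbp6 read 107, 115 and 136 CPM against 74.1, 81.4 and 90.2, without overlap, and fell by 0.51. Mael read 141, 236 and 261 CPM against 160, 184 and 211, again with a 0.5 h library as the lowest Ctrl value, and fell by 0.30. Exd1 read 32.4, 40 and 52.4 CPM against 28.8, 35.6 and 43.3 and fell by 0.17. The calls of Exd1 and of Tdrd12 (-0.15) were lost in 13 and 26 of the other settings, with adjusted p of 0.0512 to 0.202 and 0.0523 to 0.488. The 8 members without a call were Tdrd3, Tdrd6, Tdrd7, Tdrd9, Tdrkh, Pld6, Henmt1 and Kif17.

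The vectors already differed at 0 h. There 13 of 31 members were lower, against 4.32% of all genes, 0 were higher, and the members' median was -0.36. Of the 22 members lower in the averaged contrast, 21 were below 0 at 0 h and 13 were called there. At 0.5 h 11 members were lower (6.51% of all genes) and Mybl1 was higher (7.94%). At 1 h 10 were lower (3.9%), at 2 h 9 (3.94%) and 0 higher at either time. At 4 h 13 were lower (5.74%) and at 8 h 15 (8.79%), with Mybl1 higher at both (6.47% and 8.06%). Without the 0.5 h libraries 15 members were lower at 0 h (8.4% of all genes) and 15 at 1 h (7.54%). The number was 12 at 2 h (7.23%), 17 at 4 h (8.98%), and at 8 h it was 16 (12.3%). In that fit Mybl1 was higher at 4 h (10.2%) and Mybl1 and Tdrd7 at 8 h (12.1%). Piwil1, Ddx4, Mov10l1, Gpat2 and Fkbp6 were called lower at each of the 6 times. The counts lean on single libraries: without 1 of the 4 libraries of the time itself, 4 to 6 members were called in all at 0 h, 5 at 1 h and 3 to 6 at 4 h. At 2 h 3 or 4 were called without Ctrl library 2 or either Rhox10 library, and at 8 h 10 without Ctrl library 1 and 9 without Rhox10 library 2. At 0 h 8 were called without any 1 of the 4 h libraries, and at 1 h 16 without Ctrl library 2 of 0.5 h.

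**Figure D3:**
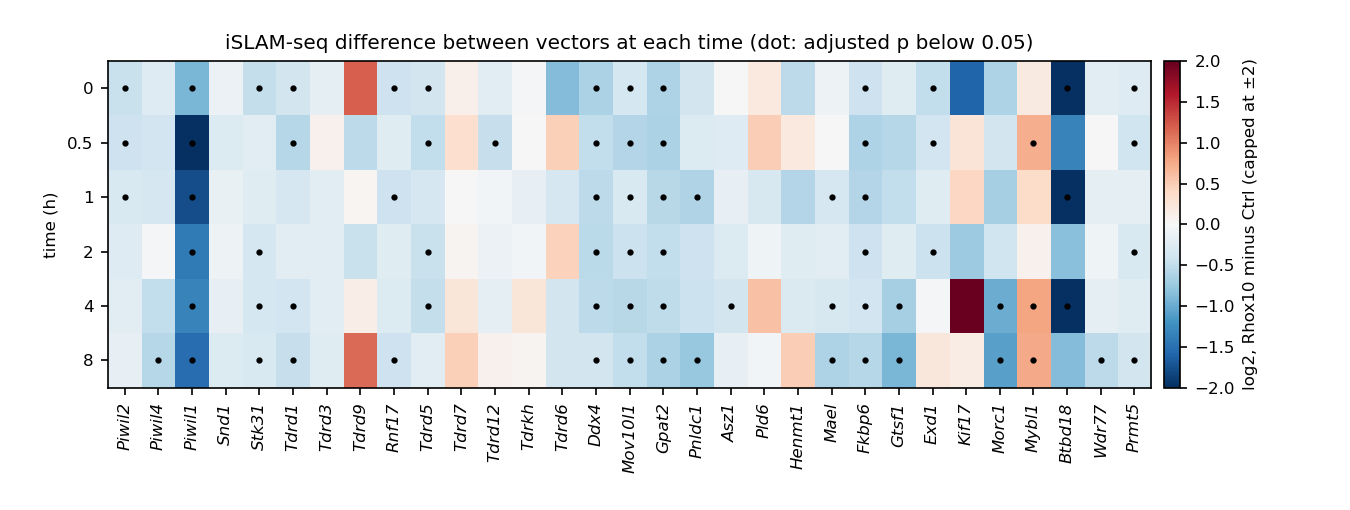
Log2 difference between the Rhox10 and Ctrl vectors for 31 members (columns, by role) at 6 times (rows), blue where Rhox10 is lower, with colours capped at ±2 and a dot where the edgeR adjusted p is below 0.05. Most columns are blue in the 0 h row too, where 13 members are called.

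The change of the vector difference from 0 h was called for 0 of 31 members by the edgeR quasi-likelihood F-test over 5 times, against 2.39% of all genes. At an unadjusted p under 0.05 there were 5, Henmt1, Mael, Exd1, Kif17 and Wdr77, but the share of all genes at that level was not counted. DESeq2 called 2 members and 835 genes in all, and limma-voom called 1 member. Without Ctrl library 1 of 0.5 h 8 members were called, against 19.5% of all genes, a share near that background, and without Ctrl library 2 of 0.5 h 3, against 7.01%. Each of these 2 fits rests on 1 Ctrl library at 0.5 h. Without all 0.5 h libraries 3 members were called, Mael (edgeR adjusted p = 1.35e-04), Exd1 (0.0157) and Wdr77 (0.0127), against 7.35% of all genes. In the contrast of 8 h with 0 h alone, added after the data had been seen, Mael and Exd1 were called, against 2.57% of all genes.

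Mael was at 200 and 218 CPM with Ctrl and 190 and 202 with Rhox10 at 0 h, where the vectors overlapped. At 8 h it was at 255 and 261 CPM with Ctrl and 171 and 166 with Rhox10. The difference went from -0.10 to -0.61, a change of -0.52 ± 0.135 (SE; edgeR adjusted p = 0.0406). Exd1 moved the other way, from 44.3 and 52.8 CPM with Ctrl and 34.0 and 34.5 with Rhox10 at 0 h to 35.1 and 38.6 with Ctrl and 42.8 and 43.3 with Rhox10 at 8 h. Its difference went from -0.50 to 0.23, a change of 0.73 ± 0.183 (SE; edgeR adjusted p = 0.0305). Wdr77 was at 145 and 128 CPM with Ctrl and 120 and 115 with Rhox10 at 0 h, and at 164 and 170 against 116 and 117 at 8 h.

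**Figure D4:**
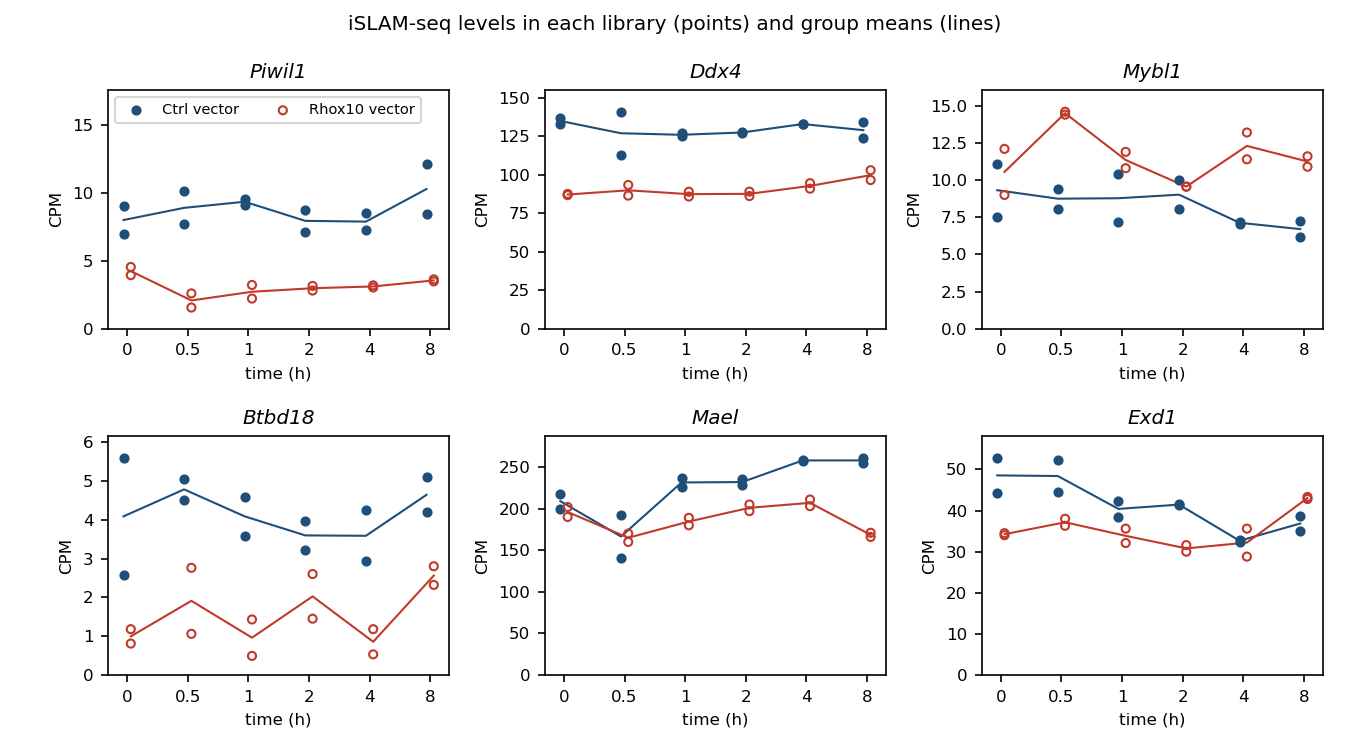
CPM of 6 members in each iSLAM-seq library by time, filled for Ctrl and open for Rhox10, with lines through the group means; axes start at 0. Piwil1, Ddx4 and Btbd18 are apart at 0 h, Mael parts with time, and Exd1 crosses, with 42.8 and 43.3 CPM for Rhox10 at 8 h against 35.1 and 38.6 for Ctrl.

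Marker lists were also compared in the cultures. The summed level of the members was 2090 to 2210 CPM with Ctrl and 1670 to 1780 with Rhox10 over all 24 libraries. Of the undifferentiated spermatogonia list 13 of 16 tested genes were lower, 0 higher and the median was -0.43, and of the pan germ cell list 7 of 17 were lower, 1 higher and the median was -0.24. The list of differentiating spermatogonia and meiosis had 6 of 15 lower and 2 higher, with a median of -0.10. The other piRNA and transposon silencing genes had 5 of 10 lower and 0 higher, with a median of -0.18. Sertoli genes had 2 of 8 lower and 4 higher, and endothelial and macrophage genes 4 of 7 lower and 1 higher. The Leydig genes Hsd3b1, Insl3, Cyp11b1 and Lhcgr, the Sertoli genes Amh and Rhox8 and the erythroid gene Hbb-bt were at 0 in all iSLAM-seq libraries. Stromal genes summed to 991 to 1610 CPM with Ctrl and 1180 to 2010 with Rhox10, with 4 of 8 higher and 1 lower, and their part in the members' differences was not tested.

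In both contrasts 19 of the 30 members tested in both assays were lower, against 7.87% of 12562 genes. These 19 were lower both with loss of Rhox10 in sorted cells and with an added Rhox10 fusion in culture, where the vectors already differed at 0 h. Among them, Exd1 and Tdrd12 lost the averaged culture call in 13 and 26 of the other settings. At 8 h their vector differences were 0.23 and 0.08, with no call. With scaling to the pan germ cell list, Stk31 alone was still called lower in the sorted cells. Tdrd3, Snd1, Tdrkh, Tdrd7, Tdrd9 and Pld6 had opposite signs in the 2 contrasts (0.29 and -0.16 for Tdrd3, and -0.60 and 0.02 for Tdrkh). The order of the falls differed, with Stk31, Exd1 and Asz1 at -1.36, -1.36 and -1.26 in the sorted cells but -0.30, -0.17 and -0.25 in culture. Piwil1 was at -0.43 in the sorted cells and -1.63 in culture. The cells, library kits and control groups differ between the assays, and the age of the sorted animals is not given. These values are therefore set side by side without a test.

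RHOX10 peaks were annotated by the authors to 9 of the 32 members, each within 200 bases of a start site, and 8 of these were among the 30 tested members. Within 3 kb 27.3% of all tested genes had a peak. The score of each peak is the authors' own, and the median over 5147 peaks was 127.5. Snd1 had the highest member score, 390.3 (chr6:28479854-28480452, rank 568), followed by Tdrd12 with 222.7 (chr7:35537488-35537962), Tdrkh with 152.4 (chr3:94412755-94413492) and Tdrd5 with 139.3 (chr1:156303000-156303852). The other scores were under the median, at 90.0 for Ddx4 (chr13:112651748-112652508, annotated as intron), 89.8 for Mael (chr1:166238564-166239043), 84.9 for Tdrd6, 72.1 for Mov10l1 (chr15:88982540-88983193) and 58.8 for Pnldc1. The peaks of Ddx4, Mael and Mov10l1 cover the E-box of the gene. No peak was annotated to Piwil1, Piwil2, Piwil4, Mybl1 or Btbd18.

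**Figure D5:**
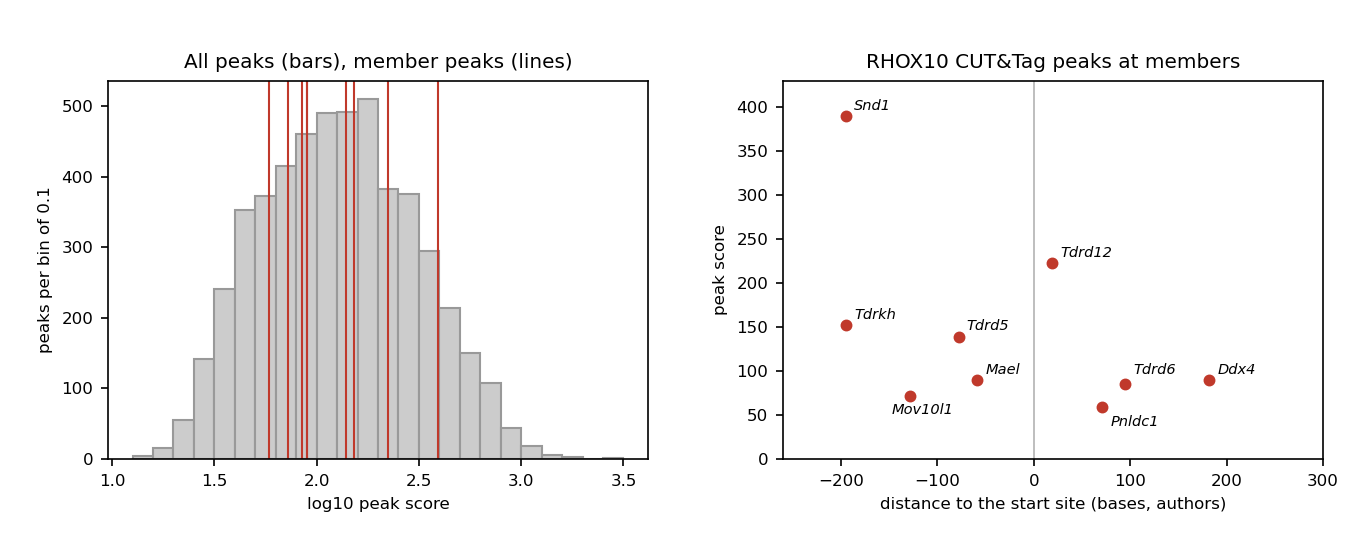
Left, the number of RHOX10 peaks in bins of 0.1 of log10 peak score, with lines at the 9 member peaks; right, peak score against the distance in bases from the start site as the authors gave it. All 9 lie within 200 bases, and 4 reach the median score of 127.5.

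Calls in members with and without a peak are set side by side here, with no test. In RNA-seq 7 of 8 tested members with a peak and 15 of 22 without were lower, and in the averaged iSLAM-seq contrast 7 of 9 and 15 of 22. Snd1, with the highest score, was the tested member with a peak that was not lower in RNA-seq. It read 129, 150 and 188 CPM with Ctrl and 117, 132 and 145 with Rhox10 in culture, a fall of 0.20. In RNA-seq 8 of 10 tested members with an E-box and 10 of 15 without were lower.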

How the data were processed

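The members and the gene lists were chosen with earlier results of these data known. The RNA-seq and iSLAM-seq tables give, per the file headers, unscaled read counts by gene and library that the authors deposited. The submitters' processing notes name STAR 2.5.2b, Subread featureCounts and DESeq2 with GRCm38 for RNA-seq, limma 3.42.2 for iSLAM-seq, and Bowtie2 2.2.5, SAMtools and HOMER with mm10 for CUT&Tag. The iSLAM-seq aligner, whether all or only converted reads were counted, and the strand settings are not given in the sources used here. The peak table gives the authors' score for each merged peak, per the file headers, and its control libraries were not used here. There were 0 further columns of samples.

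All genes were fitted with edgeR 4.0.16 (R 4.3.3, quasi-likelihood F-tests, TMM scaling, filterByExpr, Benjamini-Hochberg, calls at adjusted p under 0.05), by genotype for RNA-seq and by 12 group means over 24 libraries for iSLAM-seq. SEs come from the log2 difference and its F value (size over root F). CPM used TMM-scaled totals, and CPM per kb the exonic length of GENCODE M21. With 4 or 2 libraries a group precision comes from spread pooled over genes. Alternatives were DESeq2 1.42.0, limma-voom (limma 3.58.1), other scalings and filters, a replicate block and each library left out. The scripts were tested on simulated data. Values in every library were printed for the PIWI genes, Mybl1, Btbd18, up to 4 largest rises and falls per assay, members whose vector difference changed from 0 h, and members with a peak within 3 kb; in iSLAM-seq lowest, median and highest stand for groups of 10. Same-numbered libraries did not deviate together (correlations of -0.023 to 0.033), so the numbers were not taken as pairs.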

Additional observations from a re-analysis of the deposited data

Results flagged for a closer look

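The vector difference of 2 members in iSLAM-seq was not the same at 8 h as at 0 h by a test of that difference (edgeR quasi-likelihood test of 8 h against 0 h alone, adjusted over all genes, a contrast chosen after the data had been seen). For Mael the change was -0.52 on the log2 scale (SE 0.135, adjusted p = 0.0406), with Rhox10 below Ctrl in both replicates at 8 h. For Exd1 it was 0.73 (SE 0.183, adjusted p = 0.0305), with Rhox10 below Ctrl in both replicates at 0 h and above it in both at 8 h. The F-test over all 5 induced times did not pass for either (adjusted p = 0.104 and 0.124), and it did without the 0.5 h libraries (1.35e-04 and 0.0157). Among 62 RNA-seq groups of 4 member values, 0 had a library far outside the others, where chance would give about 3.1.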

How the results depend on the processing

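With the RNA-seq libraries scaled to the pan germ cell list, 13 members were called in place of 23, 1 lower and 12 higher, and 12581 genes in all. Members that had been below 0 and were then above it were, with Henmt1 (0.63) and Pld6 (0.40), Piwil1 0.53, Piwil2 0.02, Piwil4 0.32, Tdrd1 0.10, Tdrd5 0.17, Tdrd7 0.56, Tdrd9 0.68, Tdrd12 0.35, Tdrkh 0.36, Rnf17 0.25, Ddx4 0.06, Gpat2 0.34, Pnldc1 0.16, Mael 0.41, Gtsf1 0.28, Fkbp6 0.05, Btbd18 0.10, Prmt5 0.85 and Wdr77 0.55. Mybl1 (1.09), Snd1 (1.06) and Kif17 (1.18), above 0 before, were called higher. With library totals, which moved the median of all genes by 0.35, 7858 genes were called, 15 members were lower and 3 higher, Tdrd9 stood at 0.06, and the calls of Piwil4, Tdrd7, Tdrd12, Tdrkh, Gtsf1 and Wdr77 were lost (adjusted p of 0.0951 to 0.753). DESeq2 called 2980 genes and 0 members higher, and leaving out single libraries gave 0 to 1 members higher. Scaling is what was changed in these fits, and the cause of the other differences was not tested.

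In iSLAM-seq, leaving out single libraries gave 4 to 15 members called at 0 h, 5 to 16 at 1 h, 3 to 12 at 2 h, 3 to 20 at 4 h and 9 to 18 at 8 h. A fit on the 0.5 h libraries alone called 0. The change from 0 h, with 0 members and 494 genes, became 2 and 835 with DESeq2, 3 and 1496 without the 0.5 h libraries, 1 and 1002 with no filter on low counts, 1 member with limma-voom and 2 with 8 h against 0 h alone. Leaving out single libraries gave 0 to 8 members and 314 to 4331 genes, with 4331 without Ctrl library 1 of 0.5 h, 1555 without its library 2, 314 without Ctrl library 1 or Rhox10 library 1 of 8 h and 315 without Rhox10 library 2 of 8 h. Of the peaks at members 4 reach the median score. With the replicate block the genotype contrast called 23 members, 22 lower, and the averaged iSLAM-seq contrast 24 members, 23 lower, where Tdrd3 was gained; the block changed no other call in these 2 contrasts.

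Depth limits Tdrd6, Tdrd9, Kif17 and Btbd18 in culture, with 2 to 63 counts per library. In RNA-seq it limits Tdrd6, Kif17 (5 to 14 counts per library), Henmt1 (6 to 14), Pld6 (8 to 20), Piwil1 (11 to 18) and Exd1 (8 to 26).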
